A study of Mus musculus with 12 samples.

Results

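Adult-only promoter regions are stretches of chromatin near gene starts at which acetylation of lysine 8 on histone H4 (H4K8ac) formed a peak in every adult library and in no neonatal library. They were found by merging the 6 H4K8ac peak lists wherever peaks shared at least 1 bp. A merged region was kept when it held a peak from all 3 adult lists, none from the 3 neonatal lists, and every peak in it was annotated by the authors as promoter, a class that reaches 3000 bp from a transcription start site (TSS). Of 98027 merged regions, 35759 held promoter peaks alone, and 5368 of these met the rule. The regions were chosen by the presence and absence of peaks at the 2 ages, so every value below that rests on the same peaks or on the same contrast is a description of the chosen regions and was not tested.

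The study profiled H4K8ac by chromatin immunoprecipitation and sequencing (antibody Active Motif 61103) in oligodendrocyte progenitor cells (OPCs) of the mouse forebrain. All cells came from PdgfrαH2BEGFP mice, in which a nuclear green fluorescent protein marks cells that use Pdgfra, the receptor gene by which OPCs are sorted. The neonatal group was taken at postnatal day 5 and the adult group at postnatal day 60, with 3 libraries labelled as biological replicates at each age and no other treatment or allele named. Input libraries, 6 of the 12 samples, were not analysed here. Whether animals were pooled is not given in the sources used here.

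Acetylated histone tails loosen the hold of nucleosomes on DNA and are bound by bromodomain proteins, and H4K8ac is found mainly at the promoters and enhancers of active genes. OPCs divide and give rise to oligodendrocytes, the cells that wrap axons in myelin, and they persist in the adult brain, where they divide more slowly. Many mammalian promoters lie in CpG islands, stretches rich in the CG dinucleotide that are marked in most cell types, whereas promoters with few CG dinucleotides belong more often to genes used in particular tissues.

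The promoters of 5 genes show how different the sequences under such regions were. Tmem151a and Tmem125 encode membrane proteins and had regions among the strongest of the set. Mag (myelin-associated glycoprotein), Opalin (an oligodendrocyte membrane protein) and Gjb1 (connexin 32, a gap junction protein of oligodendrocytes) are myelin genes. Each line gives the 250 bases before the gene start, 5′ to 3′ on the strand of the gene, from RefSeq on GRCm38.p6, with CG dinucleotides in capitals. The positions are chr19:5085492-5085741 (minus strand) for Tmem151a, chr4:118543727-118543976 (minus) for Tmem125, chr7:30914864-30915113 (minus) for Mag, chr19:41077114-41077363 (minus) for Opalin and chrX:101383482-101383731 (plus) for Gjb1. All of them lie inside an adult-only region.
Tmem151a: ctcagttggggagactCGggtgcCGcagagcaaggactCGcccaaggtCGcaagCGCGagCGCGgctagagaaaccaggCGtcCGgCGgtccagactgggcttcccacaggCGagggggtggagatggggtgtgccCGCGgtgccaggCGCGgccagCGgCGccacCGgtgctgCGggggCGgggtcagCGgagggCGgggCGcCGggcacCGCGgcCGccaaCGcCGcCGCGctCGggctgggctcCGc
Tmem125: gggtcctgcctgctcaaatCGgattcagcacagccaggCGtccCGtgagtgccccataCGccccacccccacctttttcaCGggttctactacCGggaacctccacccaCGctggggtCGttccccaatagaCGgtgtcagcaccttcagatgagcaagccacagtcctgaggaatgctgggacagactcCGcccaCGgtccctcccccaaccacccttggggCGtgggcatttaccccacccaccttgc
Mag: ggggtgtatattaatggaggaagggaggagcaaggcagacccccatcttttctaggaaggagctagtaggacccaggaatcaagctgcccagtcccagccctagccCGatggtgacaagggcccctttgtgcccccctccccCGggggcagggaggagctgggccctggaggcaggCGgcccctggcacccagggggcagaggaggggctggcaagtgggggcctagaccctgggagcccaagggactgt
Opalin: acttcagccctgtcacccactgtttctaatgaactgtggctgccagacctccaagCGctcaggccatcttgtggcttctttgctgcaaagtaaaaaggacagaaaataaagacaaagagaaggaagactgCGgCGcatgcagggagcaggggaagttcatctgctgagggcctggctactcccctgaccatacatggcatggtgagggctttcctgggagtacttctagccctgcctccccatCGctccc
Gjb1: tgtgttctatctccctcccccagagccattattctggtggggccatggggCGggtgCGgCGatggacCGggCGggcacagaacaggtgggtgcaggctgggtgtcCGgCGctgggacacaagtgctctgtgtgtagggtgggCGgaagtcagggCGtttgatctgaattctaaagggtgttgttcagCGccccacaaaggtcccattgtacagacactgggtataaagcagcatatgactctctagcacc
The Tmem151a stretch holds 34 CG dinucleotides and the Tmem125 stretch 12. Mag has 3, Opalin 4 and Gjb1 10, so the set spans CpG-island promoters and promoters nearly free of CG.

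The libraries differed in ways that touch every count. Peaks numbered 9097, 31189 and 7353 in neonatal replicates 1, 2 and 3, against 72278, 72661 and 77002 in adult replicates 1, 2 and 3. Neonatal replicate 2 stood apart from the other neonatal libraries, and read depth is not in the files. Among the 16 OPC marker genes, a promoter peak was present on 16, 16 and 12 in neonatal replicates 1, 2 and 3 and on 15, 13 and 14 in adult replicates 1, 2 and 3. The Pdgfra promoter had a region with a peak in all 6 lists. The labelled cell type therefore had its defining genes marked at both ages.

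Adult-only promoter regions made up 15% of all promoter regions and 29.1% of the 18418 promoter regions with a peak in 3 adult lists. The reverse pattern, 3 neonatal lists and no adult list, was found at 21 regions, or 0.0587%. Among the 18418, a further 5719 regions (31.1%) had a neonatal peak in replicate 2 alone, against 23 in replicate 1 alone and 8 in replicate 3 alone. A peak in all 6 lists was present at 4200 regions (22.8%). The size of the set thus depended on neonatal replicate 2: without that library the same rule gave 11154 regions. More cells with the mark and more of the mark in each cell cannot be told apart in bulk chromatin.

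**Figure D1:**
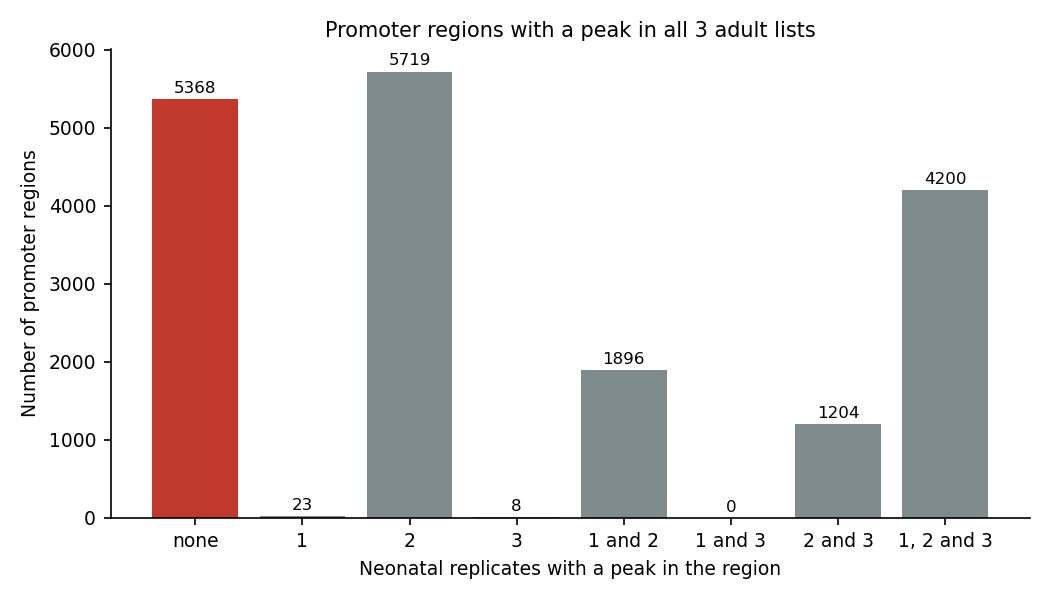
Number of promoter regions with a peak in all 3 adult lists (y axis) by the neonatal replicates that also had a peak there (x axis); the red bar is the adult-only set. The 5368 regions without a neonatal peak stand beside 5719 with a peak in neonatal replicate 2 alone and 4200 with a peak in all 3 neonatal lists.

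The same rule was then applied with libraries left out. Regions were chosen again with 1 adult and 1 neonatal list left out, in each of the 9 possible ways, which share libraries. Between 76.9% and 95.2% of the regions chosen in this way had a peak in the adult list that was left out. For all promoter regions with a peak in the same pair of adult lists, that share was 90.7% to 96.6%. In the neonatal list left out, a peak was present at 0.327% to 0.413% of the chosen regions for replicate 1 and 0.110% to 0.131% for replicate 3, where regions of the adult pair had one in 28.9% to 29.9% and 25.4% to 26.3%. For neonatal replicate 2 it was 44.9% to 46.0% of the chosen regions, against 63.8% to 65.1%. Peaks of neonatal replicates 1 and 3 at these promoters were nearly all shared with replicate 2, so their low shares follow from the absence of a replicate 2 peak and are no independent check.

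The regions held weaker adult peaks than promoter regions marked in all 6 lists or shared with neonatal replicate 2 alone. Their strength lay near the middle of all adult peaks. Promoter regions without a peak in all 3 adult lists were not compared. The fold enrichment over background that the authors' peak caller gave to the strongest peak of a region had a median of 5.06, 4.82 and 5.08 in adult replicates 1, 2 and 3. At promoter regions marked in all 6 lists the medians of the authors' fold were 15.2, 10.7 and 11.7, and at those shared with neonatal replicate 2 alone 7.79, 6.65 and 7.07. The 3 classes kept the same order in each adult library. Ranked by fold within its own list, the strongest peak of an adult-only region lay at a median mean percentile of 54.7 (quartiles 40.0 and 70.8), against 93.5 for regions marked in all 6 lists. The rank also varied more between libraries, with a median range of 25.4 percentile points over the 3 adult lists at adult-only regions and 6.52 at regions marked in all 6.

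When the 18418 regions were divided into 5 groups of equal size by that mean percentile, adult-only regions made up 68.2% of the weakest group and 46.6%, 20.8%, 8.09% and 2.09% of the following ones. Regions marked in all 6 lists went the opposite way, from 3.94% of the weakest group to 64.0% of the strongest. Even so, 77 adult-only regions lay in the strongest group, and 61 had a peak in the top 10% of all 3 adult lists. When each list was cut to its 7353 strongest peaks, the length of the shortest list, 452 promoter regions were adult-only and 456 neonatal-only. Of the 5368 regions, 64 overlapped those 452.

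**Figure D2:**
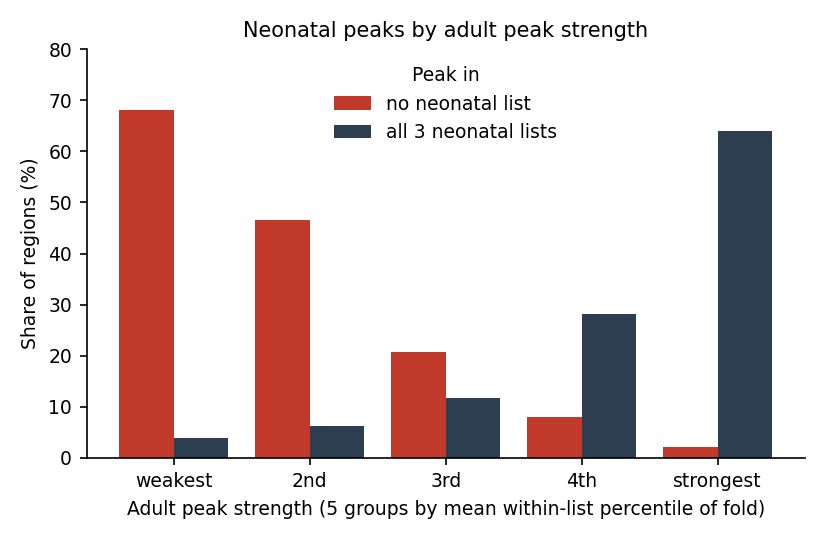
Share of promoter regions with a peak in 3 adult lists (y axis, percent) in each of 5 groups of adult peak strength (x axis, by mean percentile of fold within the 3 adult lists). Regions without a neonatal peak (red) fall from 68.2% in the weakest group to 2.09% in the strongest, while regions with a peak in all 3 neonatal lists (dark) go from 3.94% to 64.0%.

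Few adult-only regions rested on an adult peak at the edge of peak calling. An adult peak with a q-value between 0.01 and 0.05, just inside the limit of the lists, was found in 208 adult-only regions (3.87%). Just outside the rule were the 5750 regions with 3 adult peaks and 1 neonatal peak, of which 46 (0.80%) had a neonatal q-value in that range. The median −log10 q-value of those neonatal peaks, as the authors' peak caller gave it, was 8.11. Neonatal signal just short of the limit leaves no peak in the lists. How near the adult-only regions came to a neonatal peak can therefore not be seen from these counts.

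With the full lists, most adult-only regions lay beside a TSS. A TSS was covered in 1794 regions (33.4%), 1992 (37.1%) lay upstream and 1582 (29.5%) downstream. Of the regions marked in all 6 lists, 93.0% covered a TSS. The median distance from adult-only regions to the TSS was 303.5 bp, and 0 bp both with the strongest peaks and with 50% cover. The median width was 760 bp (quartiles 509 and 1261), against 1482.5 bp for regions marked in all 6 lists. The nearest peak of any neonatal list was a median of 7155 bp away. It lay within 1000 bp of 1284 regions (23.9%) and within 3000 bp of 2004 (37.3%). A neonatal peak within 3000 bp was found beside 49.6% of the upstream regions, 36.5% of the downstream ones and 24.4% of those over a TSS.

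The regions were assigned to 4100 genes, 22.1% of the 18548 genes with a promoter peak in any list. For 1894 genes (46.2%, 95% exact binomial interval 44.7% to 47.7%, counting error only) no neonatal list had any promoter peak, and these made up 10.2% of the 18548. Over all 18548 genes, 4515 (24.3%) had no neonatal promoter peak. The other 2206 genes with an adult-only region had a neonatal promoter peak elsewhere, in neonatal replicate 2 alone for 899 of them. Regions over a TSS belonged to genes with no neonatal promoter peak in 54.6% of cases, upstream regions in 30.8% and downstream regions in 42.4%. The interval takes the genes as independent and leaves out differences between libraries and settings. With the settings, the share of genes with no neonatal promoter peak moved far beyond it. The share was 75.8% without neonatal replicate 2 and 75.1% with the strongest peaks. With peaks within 1000 bp merged it was 64.1%, and 20.3% where peaks had to cover 50% of a region. Most genes, 3138, had 1 adult-only region, 693 had 2, and 269 had more.

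The authors' deposited table of differential sites gives the size of the age difference as a log2 fold change, read here as adult over neonatal. In the authors' deposited table, 43634 of 54838 tested sites (79.6%) were listed as higher in adult cells and 254 (0.463%) as higher in neonatal cells. A listed site of the authors' deposited table overlapped 5032 adult-only regions (93.7%), and each such site was higher in adult cells. This rests on the same contrast as the rule and supports nothing by itself. For the adult-only regions, the median log2 fold change, by the authors' deposited table, was 2.72 (quartiles 2.06 and 3.62). In the authors' deposited table it was 1.67 for regions shared with neonatal replicate 2 alone, 1.38 for regions marked in all 6 lists and 2.41 over all listed sites. By position, the authors' deposited table gave medians of 2.67 for regions over a TSS, 2.65 upstream and 2.83 downstream. Genes with and without a neonatal promoter peak had medians of 2.72 and 2.71 in the authors' deposited table. The remaining 336 regions, with no site in the authors' deposited table, had weaker adult peaks, with a median mean percentile of 39.9 against 55.9.

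The strongest adult-only regions lay at genes with varied roles. Tmem151a had the highest rank, with folds of 24.6, 16.3 and 20.3 in adult replicates 1, 2 and 3 (chromosome 19, 5084029 to 5086730, over the TSS). Tmem125, a gene of oligodendrocytes, followed with 23.3, 17.0 and 19.4 (chromosome 4, 118540988 to 118544802). All 3 adult libraries were high at both regions, with replicate 2 the lowest. The region over the microRNA gene Mir7000 (chromosome 2, 92385052 to 92387624) had folds of 22.0, 17.7 and 19.9. Inpp5a, which encodes an inositol phosphatase, had nearly equal folds of 17.4, 17.1 and 17.5 in a region upstream of its TSS (position -1872 bp). The other 8 of the 12 strongest were assigned to Fbxo27 (an F-box protein), Foxj1 (the regulator of motile cilia), Tmem219, Vmp1 (autophagy), Insc (spindle orientation), Rcan2 (a calcineurin regulator), Itgb4 (integrin β4) and Mag.

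Some of these regions were close to a neonatal peak. The Foxj1 region (chromosome 11, 116332748 to 116335342) had folds of 19.5, 13.2 and 17.2, and a neonatal peak lay 226 bp away. The nearest neonatal peak was 1323 bp away at Mir7000, 1880 bp at Tmem151a and 1900 bp at Insc. It was 19379 bp away at Tmem125, 37729 bp at Mag and 65843 bp at Inpp5a. No neonatal list had a promoter peak on Tmem125, Fbxo27 or Mag, whereas neonatal replicate 2 had one elsewhere on each of the other 9 genes.

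**Figure D3:**
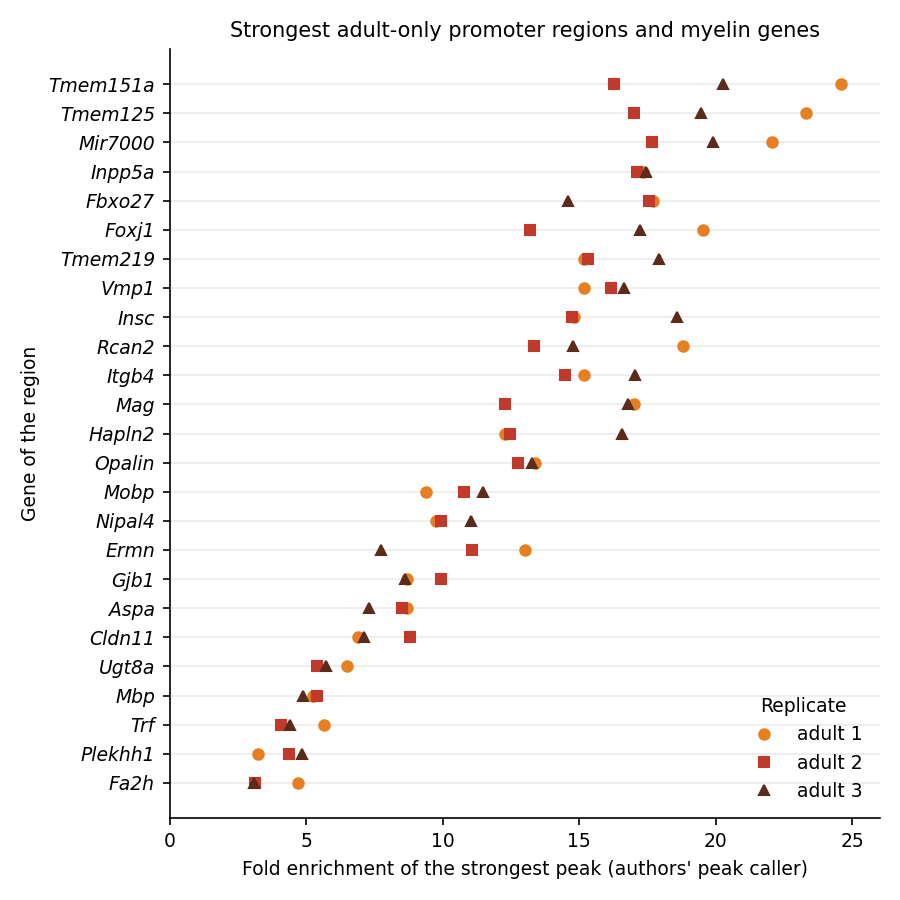
Fold enrichment of the strongest peak in each adult replicate (x axis, linear, authors' peak caller) for the 12 strongest adult-only promoter regions and for the strongest adult-only region of each of 13 other myelin genes (y axis, ordered by mean percentile). Tmem151a spans 16.3 to 24.6 and Mag 12.3 to 17.0, while Fa2h lies between 3.08 and 4.70.

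After 5 regions at Gm or Rik gene models were passed over, the 10 regions with the largest log2 fold changes in the authors' deposited table had strong adult peaks, with mean percentiles from 83.3 at Dot1l to 99.3 at Tmem125. The highest value of any adult-only region in the authors' deposited table was 8.16. Ubash3b, a phosphatase that restrains tyrosine kinase signalling, had 8.08 in the authors' deposited table (adjusted p = 9.03e-12), with adult folds of 10.8, 10.5 and 12.5. Macf1, a cytoskeletal crosslinker with several promoters, had 8.03 in the authors' deposited table (adjusted p = 1.33e-11) and folds of 12.3, 10.5 and 10.8. Inpp5j, another inositol phosphatase gene, had 7.99 (adjusted p = 1.64e-11 in the authors' deposited table). Ubash3b and Macf1 had a promoter peak elsewhere in all 3 neonatal lists, while Inpp5j had none in any. The nearest neonatal peak of any class or gene lay 3334 bp from the Ubash3b region and 35584 bp from the Macf1 region. Copg1 (a coat protein of transport vesicles), Dot1l (the H3K79 methyltransferase), Mir7243, Ermn (ermin, a myelin cytoskeletal protein), Dcp1a (mRNA decapping), Smg5 (nonsense-mediated decay) and Tmem125 had between 7.20 and 7.84 in the authors' deposited table. At the other end, Ube2l6, Septin5 and Arpp21 had 1.04, 1.08 and 1.08 in the authors' deposited table.

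The widest region covered 11991 bp at Abcb8, a mitochondrial transporter gene (chromosome 5, 24399777 to 24411767). It was followed by 9848 bp at Cspg4, the gene of the OPC surface proteoglycan NG2, then 8934 bp at Tfeb, a lysosomal regulator, 8010 bp at Spdef and 7702 bp at Ralgds. The wide Cspg4 region (chromosome 9, 56896273 to 56906120) had folds of 10.8, 13.0 and 17.2 and lay 8774 bp from the nearest neonatal peak, on a gene with promoter peaks elsewhere in all 3 neonatal lists. The Tfeb region had folds of 11.6, 11.6 and 9.71 and a log2 fold change of 6.37 in the authors' deposited table.

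Among the 15 gene lists, myelin genes had adult-only promoter regions most often. An adult-only region was found on 15 of the 20 myelin genes (75%), beside 22.1% of all genes with a promoter peak. Of the genes with an all-promoter region in 3 adult lists, this was 15 of 17, beside 28.5% of 14374. For 7 of the 15, among them Aspa, Ermn, Mag and Opalin, no neonatal list had a promoter peak, a share near the 46.2% over all genes with an adult-only region. The other 8 were Cldn11, Fa2h, Hapln2, Mbp, Nipal4, Plekhh1, Trf and Ugt8a. A promoter peak was present on 5, 11 and 5 myelin genes in neonatal replicates 1, 2 and 3, and on all 20 in each adult replicate. The count of 15 was 17 without neonatal replicate 2, where the share over all genes was 46.0%. It was 7 among the strongest peaks of lists of equal length (beside 2.45% of all genes), 4 when peaks within 1000 bp were merged (beside 11.7%) and 8 when promoter peaks had to lie within 1 kb of the TSS (beside 14.2%).

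Taken by role and not by strength, the first were the structural proteins Mobp and Mbp and the adhesion molecule Mag. Mobp, a basic protein of compact myelin (chromosome 9), had 4 regions, the strongest of which (120149772 to 120152775) had folds of 9.40, 10.8 and 11.5. The 3 adult libraries were close there. Mbp, the myelin basic protein, had weaker regions, with folds of 5.24, 5.39 and 4.89 at 82561061 to 82561998 on chromosome 18, and a promoter peak elsewhere in all 3 neonatal lists. Mag (chromosome 7, 30912891 to 30918340) had 17.0, 12.3 and 16.8 and a log2 fold change of 6.19 in the authors' deposited table (adjusted p = 1.66e-11).

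Opalin, on chromosome 19, had 4 separate adult-only regions between 41070433 and 41079164. The region from 41071827 to 41075632, downstream of a TSS, had folds of 13.4, 12.7 and 13.3. The region over the TSS that holds the printed sequence had 7.78, 7.66 and 5.58, and the outer regions had folds between 3.09 and 3.97. Their log2 fold changes in the authors' deposited table were 5.47 and 4.95 for the inner pair and 1.76 and 3.04 for the outer pair. The nearest neonatal peak was 174897 bp or more from all 4. Ermn (chromosome 2) also had 4, with folds of 13.0, 11.1 and 7.73 over the TSS, and the nearest neonatal peak was 268112 bp away or more. Both genes thus lay in stretches that were free of neonatal peaks far beyond the promoter.

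Genes for junctions, extracellular proteins and enzymes of the myelin sheath formed the rest. Gjb1 had folds of 8.68, 9.93 and 8.62 and a log2 fold change of 1.95 in the authors' deposited table, below the median of the adult-only regions. Cldn11, a tight junction claudin of myelin, had 6.89, 8.79 and 7.10 with a neonatal peak 1250 bp away. Hapln2, a link protein at the nodes of Ranvier, had folds of 10.6, 13.3 and 9.89 in 1 region and 12.3, 12.5 and 16.6 in the other. Aspa, the enzyme that cleaves N-acetylaspartate, had 4 regions, the strongest with 8.68, 8.51 and 7.29. Ugt8a, which makes galactosylceramide, had at most 6.51, 5.39 and 5.75 in a single region, and Fa2h, a fatty acid hydroxylase, 4.70, 3.12 and 3.08. The regions of the myelin genes thus ranged from a mean percentile of 17.9 at an Aspa region to 97.1 at Mag.

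Among the 5 myelin genes without an adult-only promoter region, Mog had a region with peaks in 3 adult and no neonatal list that also held peaks of other classes, and so fell outside the rule. The same was true of 1 Tspan2 region. Cnp and Mal had regions shared with at least 1 neonatal list. Over all genes, 839 adult-only regions mixed promoter and other peaks in this way.

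The list of oligodendrocyte differentiation regulators also holds genes of other kinds, such as the enzyme gene Enpp6. Of its 16 genes, 8 (50%) had adult-only regions, beside 22.1% of all genes. Of these 8, 3 had no neonatal promoter peak (Enpp6, Kif19a and Nkx6-2), no more than the 46.2% over all genes with an adult-only region. Myrf, the transcription factor that switches on myelin genes, had a region over a TSS with folds of 6.14, 5.96 and 4.69, 11288 bp from the nearest neonatal peak. Enpp6, an enzyme of newly formed oligodendrocytes, had 5.66, 5.18 and 3.47 over its TSS and a log2 fold change of 4.41 in the authors' deposited table. Nkx6-2 had 4.34, 6.50 and 3.24 and 6.32 in the authors' deposited table (adjusted p = 1.46e-07), so its peaks ranked under the median of the set and its difference between ages lay above it. The others were Bcas1 (3 regions), Sirt2, Smad7 and Zfp536. The count was 9 without neonatal replicate 2, where all genes reached 46.0%. It was 3 of 16 both with the strongest peaks (beside 2.45% of all genes) and with peaks within 1000 bp merged (beside 11.7%).

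Adult-only regions were found on 2 of 16 OPC genes (12.5%, beside 22.1% of all genes), Cspg4 with 3 regions and Matn4, an extracellular matrix protein, with 1, and both genes had neonatal promoter peaks. The Matn4 region had folds of 5.06, 3.97 and 3.64 and lay 138 bp from a neonatal peak. Of the OPC genes with a promoter region in 3 adult lists, 2 of 11 had an adult-only one, beside 28.5% of all genes. The count was 4 without neonatal replicate 2 (all genes 46.0%), 4 without adult replicate 3 (27.2%), 4 with 50% cover (37.5%), 1 with the strongest peaks (2.45%) and 0 with peaks within 1000 bp merged (11.7%). Myelin genes are also the defining markers of mature oligodendrocytes, and all 20 carried promoter peaks in every adult list. The part of more mature cells among the sorted adult cells in these results was not tested.

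**Figure D4:**
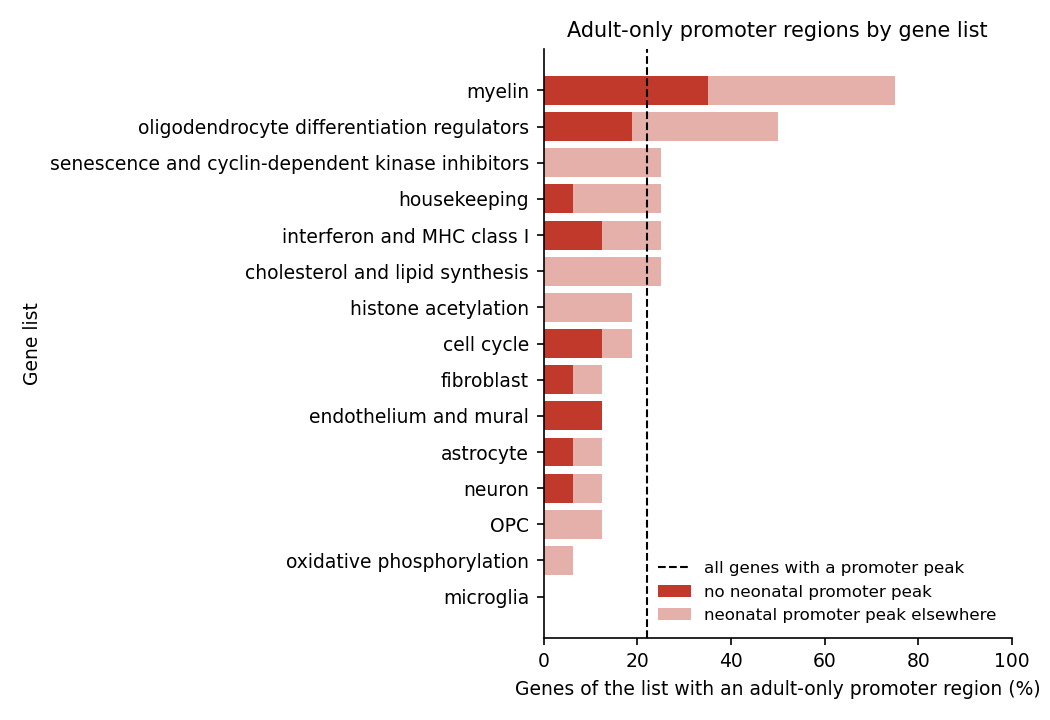
Share of the genes of each list with an adult-only promoter region (x axis, percent), divided into genes with no neonatal promoter peak (dark red) and with one elsewhere (light red). The dashed line marks 22.1%, the share over all genes with a promoter peak. The bars divide by all genes of a list, with or without a promoter peak. They are thus lower where list genes lack one, as for microglia (3 of 16 with a promoter peak) and endothelium and mural (6 of 16). Myelin genes reach 75% and the list of differentiation regulators 50%, while OPC genes lie at 12.5%.

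The other functional lists lay between 6.25% and 25% of all their genes, beside the 22.1% of all genes with a promoter peak. Without neonatal replicate 2, where all genes reached 46.0%, the counts of 16 were 12 for cholesterol and lipid synthesis, 8 for senescence, 7 each for cell cycle and histone acetylation, 9 for housekeeping, 6 for interferon and MHC class I and 5 for oxidative phosphorylation. Where peaks had to cover 50% of a region (all genes 37.5%), cholesterol and lipid synthesis had 10, senescence 8, oxidative phosphorylation 7 and cell cycle 6. With the full lists, cholesterol and lipid synthesis had 4 of 16 genes with an adult-only region (Dhcr7, Elovl1, Elovl6 and Fasn), none of them without a neonatal promoter peak. Fasn, the fatty acid synthase, had folds of 9.04, 5.91 and 7.30 in a region 804 bp from a neonatal peak, with a log2 fold change of 4.82 in the authors' deposited table. Senescence and cyclin-dependent kinase inhibitor genes gave 4 of 16, Cdkn2c, Cdkn2d, Mdm2 and Rbl2. Rbl2, the pocket protein p130 that acts in quiescent cells, had folds of 7.23, 6.81 and 8.40 over a TSS, 17660 bp from a neonatal peak. Cell cycle genes gave 3 (E2f1, Mcm5 and Pcna), histone acetylation genes 3 (Brd2, Kat2a and Kat2b) and oxidative phosphorylation genes 1 (Ndufv1). Interferon and MHC class I genes gave 4 (B2m, Irf9, Nlrc5 and Stat2) and housekeeping genes 4 (B2m, Eef1a1, Pgk1 and Polr2a).

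Markers of cell types that a Pdgfra gate might also hold gave few regions, and few of them had a promoter region in 3 adult lists. Adult-only regions were found on 2 of 16 neuronal genes (Rbfox3 and Slc17a7) and 2 astrocyte genes (Agt and Glul). They were also on 2 endothelial or mural genes (Kdr and Pecam1), 2 fibroblast genes (Col1a1 and Postn) and no microglial gene. That was at most 12.5% of a list, no like measure for the 22.1%, which is over genes with a promoter peak alone. A promoter peak in any list was present on 9 neuronal, 15 astrocyte, 6 endothelial or mural, 12 fibroblast and 3 microglial genes. Of the genes with a promoter region in 3 adult lists, an adult-only one was found on 2 of 4 neuronal and 2 of 7 astrocyte genes. It was found on 2 of 3 endothelial or mural, 2 of 2 fibroblast and 0 of 1 microglial genes. Over all genes this share was 28.5%, under that of the neuronal, endothelial or mural and fibroblast lists, which rest on few genes. Without neonatal replicate 2 the counts were 4 neuronal, 5 astrocyte, 3 endothelial or mural, 2 fibroblast and 0 microglial genes. The share over all genes with a promoter peak was then 46.0%, again no like measure. Agt, the angiotensinogen gene, had the strongest of these regions, with folds of 10.8, 7.37 and 8.47, and a neonatal peak lay 1451 bp away. Fibroblasts share the Pdgfra reporter, and their markers had a promoter peak on 0, 8 and 0 genes in neonatal replicates 1, 2 and 3 and on 7, 3 and 5 in adult replicates 1, 2 and 3. Microglial markers had 1, 1 and 1 against 2, 2 and 3. Neuronal markers had 0, 8 and 1 against 7, 5 and 5, astrocyte markers 5, 12 and 3 against 10, 8 and 10, and endothelial or mural markers 1, 4 and 0 against 4, 3 and 4. The neonatal range overlapped the adult range in 4 of these 5 lists, all but the microglial. Without neonatal replicate 2, both remaining neonatal counts lay below every adult count in all 5 lists. The part of such cells in the results was not tested.

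Promoter sequence was not used by the rule. With the full lists, it was poorer in CG where windows lay in adult-only regions than at promoters also marked in neonatal lists. RefSeq promoter windows ran from 250 bases before to 50 after a gene start. They shared at least 150 bases with 563 of the 5368 adult-only regions, and the sequence of the others was not measured. For regions marked in all 6 lists this was 2546 of 4200, and for those shared with neonatal replicate 2 alone 2094 of 5719. The 652 windows of adult-only regions had a median CpG observed over expected of 0.460 (quartiles 0.235 and 0.696). This ratio compares the number of CG dinucleotides with that given by the C and G content, and it is near 1 in CpG islands. It was 0.723 in windows of regions shared with neonatal replicate 2 alone, 0.856 where all 6 lists had a peak, 0.215 in 18330 windows with no peak in any list and 0.387 over all 32609 windows. A ratio over 0.6 was found in 34.2% of the adult-only windows, 85.5% of those marked in all 6 lists and 36.0% of all windows. The median ratio of adult-only windows was 0.741 where peaks had to cover 50% of a region, 0.661 with the strongest peaks and 0.690 without neonatal replicate 2, and the other classes were not recomputed under these settings. The median GC content was 55.3%, against 68.0% for those marked in all 6 lists and 53.0% over all windows.

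**Figure D5:**
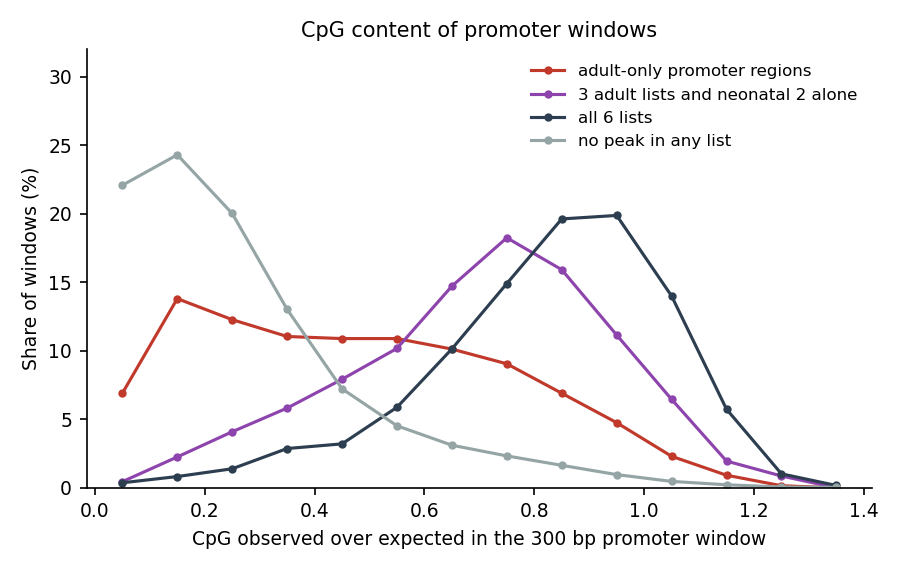
Distribution of the CpG observed over expected ratio (x axis) in promoter windows of 300 bases, as the share of windows in each class (y axis, percent). Windows in adult-only regions (red, median 0.460) spread between windows without any peak (grey, median 0.215) and windows marked in all 6 lists (dark, median 0.856).

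Short motifs were searched on both strands of the same windows, 15 in all, and a match is a description of the letters and not a binding site. GGGCGG, the GC box, was in 40.2% of adult-only windows, 73.6% of those marked in all 6 lists and 35.9% of all windows; it contains a CG itself. TATAAA was in 9.36%, 3.46% and 13.7%. CTGGCAC or CTGGTAC, letters of the MYRF site, were in 10.6%, 5.85% and 7.14%. ACAAAG, a SOX core, was in 19.9%, 11.0% and 18.7%, and CAGCTG, a bHLH core, in 19.3%, 14.9% and 16.4%. For the GC box and TATAAA the adult-only windows lay between windows marked in all 6 lists and all windows, and for the MYRF, ACAAAG and CAGCTG letters their share was the highest of the 3. A second SOX core, ACAATG, was in 10.4% of adult-only windows, 6.45% of those marked in all 6 lists and 12.2% of all windows. In windows with no peak in any list, ACAAAG was in 23.0% and ACAATG in 16.1%, above the adult-only windows. These shares move with GC content, and no allowance was made for it.

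By type of gene, the regions held more noncoding models than other marked promoters. RefSeq gave a biotype for 85.5% of the 4100 genes, and of these 81.5% were protein coding, 11.2% lncRNA and 3.51% pseudogenes. Of genes with a promoter region in 3 adult lists (91.0% matched), 88.0% were protein coding, 8.38% lncRNA and 1.41% pseudogenes. Of genes marked in all 6 lists (94.4% matched), these shares were 92.3%, 6.06% and 0.313%. Among genes with a promoter region in 3 adult lists, an adult-only region was found on 47.2% of 1895 Gm gene models and on 42.0% of 131 microRNA genes. It was found on 17.0% of 335 Zfp zinc finger genes and 19.4% of 170 Tmem genes, beside 28.5% of all 14374. Of the olfactory receptor genes, silent in most cells outside the nose, 3 had a promoter region in 3 adult lists. All 3 had an adult-only region.

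Set beside other adult-only regions, those at promoters were alike in strength and narrower. Adult-only regions of any class numbered 20028, of which promoter regions were 26.8%. The median mean percentile of fold was 54.7 at promoters, 51.6 at 7737 intronic and 54.1 at 4516 distal intergenic regions. The median widths were 760, 933 and 901 bp. By the authors' deposited table, the median log2 fold change was 2.72 at promoters and 3.06 at both intronic and distal intergenic regions.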

How the data were processed

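H4K8ac was measured by ChIP-seq in 3 neonatal and 3 adult libraries, grouped by the labels. Per the submitters' processing notes, Trim Galore, Bowtie2 2.4.5, SAMtools, deepTools, MACS2, DiffBind and ChIPseeker were named with the build GRCm38; their settings are not given in the sources used here. Per the file headers, the authors deposited 1 list per library, with the position of each peak, a score, a fold enrichment (ratio), −log10 p-value and −log10 q-value and its gene annotation. For each differential site the authors deposited a p-value, raw and adjusted, and a log2 fold change, without the libraries' own values. Its direction was read from the data: in the authors' deposited table, 85.0%, 89.4% and 96.7% of the positive sites lay on peaks of adult replicates 1, 2 and 3, but 11.7%, 27.8% and 10.3% on those of neonatal replicates 1, 2 and 3. The number of sites tested was recovered from its adjusted p-values. How the reads behind it were normalised is not given in the sources used here.

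Peak starts in the lists count from 0, which held for 100% of the peaks checked; positions are printed from 1. Lists were merged with Python 3.11.15, numpy 2.4.6 and pandas 2.3.3. A region took its strongest peak by fold in each list, ranked within that list, and the differential site that shared the most bases with it. Intervals came from scipy 1.17.1 and figures from matplotlib 3.10.9. Overlap and merging were checked on simulated peaks. Promoter sequences are from RefSeq (GRCm38.p6), matched by position, with a window used where it shared at least 150 bases with a region.

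The genes named are the 12 regions with the highest mean percentile of fold, the 10 with the largest and the 3 with the smallest log2 fold change, the 5 widest, and every gene of the 15 lists with an adult-only region. Symbols of Gm or Rik models were passed over in all but the lists, and a few genes are not reported here. The regions, lists and rules were chosen with earlier results of these data known. No test was made, because the regions were chosen by the contrast itself. Alternatives were other merging, thresholds, list lengths and annotation rules, and leaving out each library. Depth per library is unknown, which limits what the absence of a peak can show.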

Additional observations from a re-analysis of the deposited data

How the results depend on the processing

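The number of adult-only promoter regions, 5368, was 2181 with peaks within 1000 bp merged and 452 with the 7353 strongest peaks of each list. It was 2889 with promoter peaks within 1 kb only. Where peaks had to cover 50% of a region it was 7724, and 51.3% of the 5368 overlapped those. With 1 library left out it was 5376 to 11154, the highest without neonatal replicate 2. Neonatal-only regions, 21, were 12 with the wider merging, 456 with the strongest peaks, 4 where peaks had to cover 50% of a region, and 28 to 89 with 1 library left out, the highest without neonatal replicate 3. In the order wider merging, strongest peaks, 50% cover and 1 kb, the share of genes with no neonatal promoter peak was 64.1%, 75.1%, 20.3% and 48.3%. By the authors' deposited table, the median log2 fold change was 2.64, 2.57, 1.89 and 2.43, the median CpG observed over expected 0.533, 0.661, 0.741 and 0.518, and the median distance to the TSS (303.5 bp) 121, 0, 0 and 66.3 bp. With 1 library left out these ranged from 42.3% to 75.8%, 2.06 to 2.73, 0.446 to 0.690 and 43.3 to 579 bp, the far value of the first 3 and the shortest distance coming without neonatal replicate 2. Myelin genes with a region, 15, were 4 with the wider merging, 7 with the strongest peaks, 8 within 1 kb, and 15 to 19 with 1 library left out. The distance was 268 bp at a q-value of 0.005 or less, and 345.5 and 264 bp in adult replicates 1 and 3 alone. The median log2 fold change was 2.98 for sites with an adjusted p-value under 0.005 in the authors' deposited table, and the CpG ratio 0.419 in the 250 bases before the start. The cause of these shifts was not tested. The 250-base window, the merging of touching peaks (5369 regions) and the alternatives for gene lists were chosen after seeing the data. The CpG ratio of whole regions and of their central 300 bp was not run, because no genome sequence was used here. No paired analysis was possible because no result comes from a test.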

Other observations

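After the values were seen, genes with many adult-only promoter regions were singled out. Frmd4b, a scaffold protein gene, had 12 regions and Tcf4, an E-protein transcription factor gene, had 9. Dst (dystonin, a cytoskeletal linker) and Synj2 (an inositol phosphatase) had 8 each, and Dot1l, Plekha5 and Ssbp3 had 7 each. The number of annotated starts per gene was not taken into account.

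By chromosome, the share of promoter regions with 3 adult peaks that were adult-only was highest on chromosome X, at 35.9% (148 of 412 regions), and lowest on chromosome 8, at 24.8% (241 of 972), beside 29.1% over all chromosomes. The strongest peak ranked highest within its list in adult replicate 3 for 2702 adult-only regions (50.3%), in replicate 2 for 1421 and in replicate 1 for 1245. For regions marked in all 6 lists, replicate 1 was highest in 1831 of 4200, replicate 3 in 1380 and replicate 2 in 989.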
